A study of Mus musculus with 9 samples.

Results

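Adipocyte nuclei of mouse epididymal fat were described across 9 diet histories. The adipocyte nuclei were chosen by measured values: a nucleus with 500 to 3000 detected genes and at most 40000 unique molecular identifiers (UMIs) was taken where at least 6 of the 12 genes Adipoq, Plin1, Plin4, Lipe, Pnpla2, Acsl1, Ghr, Pde3b, Acvr1c, Cidec, Tshr and Lep had a UMI, and at most 2 of the 9 genes Pdgfra, Lama2, Adgre1, Mctp1, Ptprc, Flt1, Ptprb, Gpm6a and Muc16 did. The rule took 9817 of 76356 nuclei within those limits, from 91687 deposited barcodes.

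The study asked whether fat cells keep a trace of obesity after weight loss. Nuclei came from the epididymal fat pads of C57BL/6J males, with 1 library per group and the tissue of 5 mice pooled in each library. Chow controls were C at 18 weeks of age, CC at 26 weeks and CCC at 39 weeks. By the paper's account C ate a low-fat control chow, whereas CC and CCC had been switched from it to a standard chow. Obese mice were H, at 18 weeks after 12 weeks of high-fat diet (HFD), and HH, at 31 weeks after 25 weeks of HFD. Weight-loss mice were HC, at 26 weeks after 12 weeks of HFD and 8 weeks of chow, and HHC, at 39 weeks after 25 weeks of HFD and 8 weeks of chow. Both re-challenged groups were 30 weeks old and ended on 4 weeks of HFD. CCH mice had eaten chow until then, and HCH mice had gone through 12 weeks of HFD and 8 weeks of chow. Here H was set beside C, HH and HC beside CC, HHC beside CCC, and HCH beside CCH. HH mice were 31 weeks old and CC mice 26, the HH and CC libraries alone of these pairs were in different sequencing sets, and the HH and HC comparisons share CC. With 1 library a side, a difference between 2 libraries has no replicate check, its interval covers counting error only, and no p-value is given for it.

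White adipocytes store fatty acids as triglyceride in a single large droplet. Insulin favours uptake of glucose and fatty acids, fatty acid synthesis and esterification, whereas fasting and catecholamines act through beta-adrenergic receptors and lipases to release fatty acids. Growth hormone acts on adipocytes through its receptor, JAK2 and STAT5, which switches on feedback inhibitors such as Cish and Socs2. In obesity adipocytes enlarge, and the surrounding tissue gains macrophages and matrix.

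Over the whole series, libraries held 5173 to 14833 barcodes and 22599619 to 66615262 UMIs. They carry 2 sequencing set names, with C, H, HH, CCH and HCH in 1 set and CC, CCC, HC and HHC in the other. Pairs of libraries shared 8 to 55 barcode sequences, and 0 to 2 of those were adipocyte nuclei in both. Automatic doublet scoring marked under 0.1% of nuclei in CC, CCC, HC and HHC, where it had not worked, so doublets stayed in and were tested only as an alternative.

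Adipocyte nuclei were scarce in obese tissue. C held 2662 of them, 22.9% of its nuclei within the limits (95% exact binomial interval 22.1 to 23.6). H held 190, or 1.93% (1.67 to 2.23), and HH 479, or 3.59% (3.28 to 3.92). HC held 918 (17.0%), HHC 467 (5.13%), CCH 770 (10.6%) and HCH 435 (4.41%). CCC held 1554 (26.9%) and CC 2342, at 56.5% the highest share. The obese libraries thus stood lowest and the chow libraries highest, but the limit on detected genes bore on these shares. It removed 66.0% of nuclei that otherwise met the rule in H and 52.0% in HH, against 24.5% in C and 14.5% in CC. It removed 69.5% in both CCH and HCH and 48.8% in HHC. Without it the share was 5.15% in H, 27.3% in C, 26.2% in CCH and 11.9% in HCH.

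The label of adipocyte held to a different degree in each library. The 12 rule genes made up a median of 38.6 of every 1000 UMIs in adipocyte nuclei of C, 27.3 in H, 22.0 in HH and 9.85 in CC. Mesothelial nuclei, which line the fat pad and should lack these genes, were taken as a measure of free RNA. They were the 3269 nuclei with at least 4 of 10 mesothelial markers and at most 2 of 9 genes of other cell types. Those 9 included the rule genes Adipoq and Plin1, so both kinds of nuclei were chosen in part on rule genes. Their median was 0.694 per 1000 UMIs in H, 2.90 in C and 5.31 in CC, so in CC the 2 kinds of nuclei lay close together. Only 43.4% of adipocyte nuclei in CC and 58.1% in CCC exceeded the 95th percentile of mesothelial nuclei of their library, against 95.3% in C, 99.5% in H and 100% in HH. Adipocyte markers outside the rule had a median of 16 per 1000 UMIs in adipocyte and 9.36 in mesothelial nuclei of CC, 19 and 2.57 in CCC, 20.9 and 3 in C, and 32.2 and 1.75 in H. The CC nuclei chosen by the rule therefore include many that these genes do not set apart from mesothelial nuclei. In CCC the medians lay far apart, for rule genes at 14.4 and 1.89 per 1000 UMIs. The 95th percentile there was 13.1, from 132 mesothelial nuclei. Nuclei above that percentile, called stricter nuclei below, made up 24.5% of CC and 15.6% of CCC, and the counts of called genes in each comparison are also given for them. At the edge of the rule, nuclei with exactly 6 of the 12 genes carried a median of 6.64 rule-gene UMIs per 1000 in CC and those with exactly 5 carried 5.96. In H the same medians were 12.9 and 7.36.

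**Figure D1:**
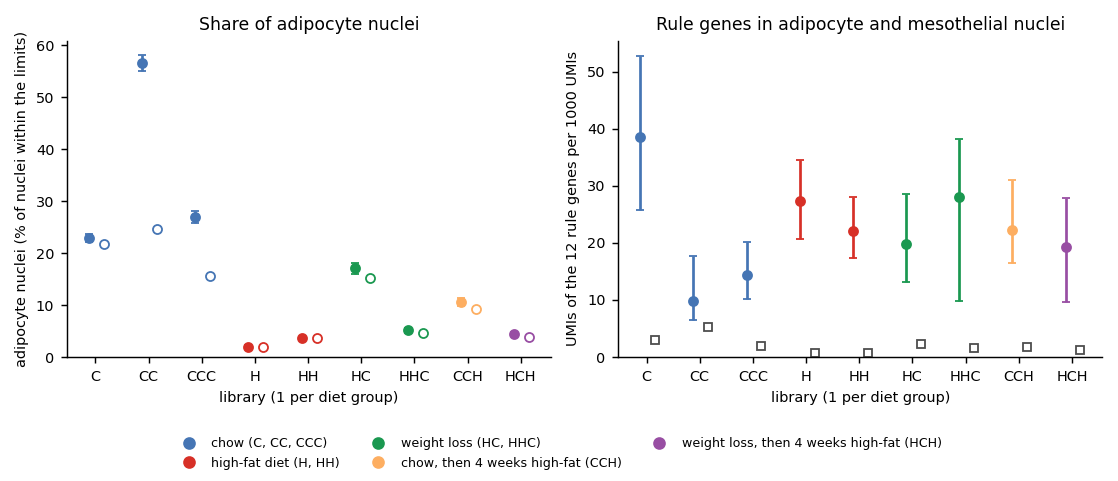
Left, adipocyte nuclei as a percentage of nuclei within the limits in each of the 9 libraries (filled points, with 95% exact binomial intervals) and the share left as stricter nuclei (open circles). Right, UMIs of the 12 rule genes per 1000 UMIs, as median and quartiles in adipocyte nuclei (filled) and as the median in mesothelial nuclei (open squares); CC had the highest share, at 56.5%, and the smallest gap between both kinds of nuclei, 9.85 against 5.31.

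Genes outside the rule also marked these nuclei. Of 4096 genes with at least 50 UMIs per 1000000 (CPM) in adipocyte nuclei, 633 were on average at least 2-fold higher than in all other nuclei and 84 at least 8-fold. Because the nuclei were chosen on expression, this is a description. The highest mean log2 ratios among annotated protein genes belonged to Ctcfl, a paralogue of the insulator protein CTCF, at 4.93 ± 2.37 (SD, n = 9 libraries), and to Vwc2l, a secreted protein with von Willebrand factor C domains, at 4.80 ± 2.59. 4931428L18Rik and Tmem45b followed at 4.46 and 4.40, with Klb, the co-receptor for FGF21, at 4.29, and the glutamate transporter Slc1a3 at 4.26. Nnat, Adrb3, Pnpla3 and Car3 stood at 3.72 to 4.12. By contrast the lipid-handling genes Cd36 and Lpl, which other cells of fat also express, reached only 0.63 and 0.96. For Ctcfl the ratio ran from 1.83 in CC to 9.06 in H, and the genes named with it from Vwc2l to Car3 likewise had lower ratios in CC and CCC than in H and HH.

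In H against C, 8935 genes had enough UMIs to compare, 2096 were at least 2-fold higher and 571 at least 2-fold lower, which is 23.5% and 6.39% of the genes compared. The sums behind these values, without mitochondrial genes and Malat1, were 812837 UMIs in H and 12814315 in C. Stricter nuclei gave 24.2% and 5.9%. Scaling bore on the split: the median log2 ratio of all genes was 0.22 with total counts and −0.15 with TMM factors (scaling that trims extreme genes), and the higher share of calls went from 78.6% to 54.3%. The entry limit bore on it too, since a gene of low count can enter on a high count in the smaller sum of H. With at least 30 UMIs, 16.2% were higher and 6.94% lower in H, with a median log2 ratio of 0.04. After thinning each nucleus to 1000 UMIs, the shares were 16% and 10.3%. The 23.5% set beside list counts in H below thus holds at the limit of 10 UMIs only. In HH against CC, 22.4% of 12626 genes were higher and 16.1% lower, or 25.3% and 9.05% in stricter nuclei. In HC against CC 4.14% of 13151 genes were higher and 15.1% lower, or 4% and 8.74% in stricter nuclei, and TMM moved the higher share of calls from 21.5% to 31.6%. In HHC against CCC 6.38% of 12075 genes were higher and 7.85% lower, or 8.25% and 5.18%. In HCH against CCH 13.8% of 11594 genes were higher and 1.84% lower, or 15.4% and 1.82%. With total counts, H, HH and HCH thus had mainly higher calls, and HC mainly lower ones. With the CPM of mesothelial nuclei subtracted, 4288 genes could be compared in HC against CC, and 31.9% were higher and 18.6% lower. The split in HC thus turned with that subtraction, while H, HH and HCH kept mainly higher calls.

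Many of these genes were not far above their level in mesothelial nuclei. That level holds free RNA and whatever mesothelial cells transcribe themselves, which were not separated: progenitor markers summed to 9267 CPM in mesothelial nuclei of H and 3813 in the other nuclei. Of the 2096 genes higher in H, 881 (42.0%) were at least 2-fold above their level in mesothelial nuclei of H. The share was 44.6% for genes higher in HH, 34.2% in HHC, 24.9% in HCH and 20.8% in HC. A mesothelial count under 3 was set to 3. Mesothelial nuclei numbered 719 in HH, 423 in HCH, 210 in HHC and 132 in HC. Where they were few, genes of low level could not reach 2-fold, so these shares cannot be compared directly between libraries. Genes described below were read beside that level. The gene lists were chosen with earlier results of these data known, so their counts beside all genes are descriptions.

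Lipolysis genes were higher more often than all genes in HH, and in H their count was nearer to the background. Of 16 members, 5 were at least 2-fold higher and 1 lower in H against C (23.5% and 6.39% of all genes), with a median log2 ratio of 0.61 against 0.22 over all genes. In HH against CC 8 were higher and 1 lower (22.4% and 16.1% of all genes), with a median of 1.07 against 0.10, and among stricter nuclei 6 and none. G0s2, the inhibitor of the triglyceride lipase ATGL, stood at 295, 125 and 281 CPM on chow (C, CC and CCC), 2054 and 2622 when obese (H and HH), 56.0 and 330 after weight loss (HC and HHC), and 348 and 748 after the last HFD (CCH and HCH). Both obese libraries lay far above every other, HCH came next, and HC was lowest. The log2 ratio was 2.80 (95% exact interval 2.72 to 2.88) in H against C and 4.39 (4.30 to 4.49) in HH against CC. In HHC against CCC it was 0.24 (0.09 to 0.38). Mesothelial nuclei held 13 CPM of G0s2 in H and 47.7 in HH.

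Other lipolysis genes moved less evenly. Fabp4, the fatty acid carrier, was at 1803 to 2551 CPM in the 3 chow libraries, 5614 in H, 6370 in HH and 4942 in HCH, and at 963 in HC. Mesothelial nuclei of CC held 2104 CPM, and the log2 ratio of −1.40 in HC against CC became 0.45 once mesothelial CPM were subtracted. Hcar2, the niacin and ketone body receptor, reached 23.4 CPM in H and 14.9 in HH and at most 1.87 in the 3 chow libraries. The ATGL co-activator Abhd5 was at 130 CPM in H beside 400 in C (log2 ratio −1.62, interval −1.91 to −1.34), yet CC and CCC, at 78.6 and 79.7, were below H as well. Adrb3, the beta3-adrenergic receptor of adipocytes, was similar in C (934 CPM) and H (957). After HFD and weight loss it stood at 292 CPM in HHC against 757 in CCC, and after re-challenge at 454 in HCH against 1193 in CCH. The log2 ratios were −1.37 (−1.51 to −1.24) and −1.39 (−1.50 to −1.29). Adrb3 did not pass 2-fold in HC or in HH against CC.

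Fatty acid synthesis genes separated the libraries in another way. This group of 18 builds fatty acids from citrate. In H against C 2 were higher and 5 lower (23.5% and 6.39% of all genes), with a median log2 ratio of −0.57. In HH against CC 3 were higher (Thrsp, Slc25a1 and Scd2) and 3 lower (22.4% and 16.1% of all genes), with a median of −0.09. In HC against CC 5 were higher and 1 lower (4.14% and 15.1% of all genes), with a median of 0.48, and none of 18 passed 2-fold in HHC against CCC. Acaca, the enzyme that makes malonyl-CoA, was at 3563, 728 and 631 CPM on chow (C, CC and CCC), 690 and 533 when obese (H and HH), 2657 and 1110 after weight loss (HC and HHC), and 828 and 425 after the last HFD (CCH and HCH). C and HC were far above the rest, and CC and CCC lay close to H. The log2 ratio was −2.37 (−2.49 to −2.25) in H against C and 1.87 (1.82 to 1.92) in HC against CC, where stricter nuclei gave 1.51. It was −0.45 (−0.54 to −0.35) for HH.

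The other 4 synthesis genes higher in HC were Acly, which splits citrate, at 254 CPM against 91.3 in CC, malic enzyme Me1 at 717 against 222, the elongase Elovl6 at 116 against 51.7, and acetoacetyl-CoA synthetase Aacs at 332 against 86.8. For Me1 HC was the highest of all 9 libraries, which otherwise ran from 190 to 338 CPM. Scd1, the stearoyl-CoA desaturase, was the gene that was lower in HC, at 867 CPM against 1805 in CC, where mesothelial nuclei held 1578 CPM. Its log2 ratio became 0.96 once mesothelial CPM were subtracted. Acacb, the mitochondrial carboxylase isoform, was 1531 CPM in C and 183 to 202 in both obese libraries. It was also at least 2-fold lower in HH than in CC, and it was 145 CPM in HCH against 530 in CCH. In the main edgeR test of diet states below, which used all 3 chow libraries, no gene of this group fell.

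Triglyceride synthesis genes were split. Of 11 members 3 were higher and 3 lower in H against C, and 4 higher and 1 lower in HH against CC (23.5% and 6.39%, and 22.4% and 16.1%, of all genes). Gpd1, which makes glycerol 3-phosphate, was at 35.4 to 98.9 CPM in chow libraries, 226 in H and 325 in HH, while HC and HHC had 128 and 157 and CCH and HCH 63.5 and 120. Agpat2, the next acyltransferase of the pathway, was at 71.8 to 91.3 CPM in chow libraries, 296 in H and 319 in HH, and at 69.3 in HHC. For both genes each obese library lay above every chow library.

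Insulin and glucose genes gave 4 higher and 3 lower of 16 in H against C, and 4 higher and none lower of 18 in HH against CC. The shares over all genes were 23.5% and 6.39% in the first and 22.4% and 16.1% in the second, so the higher counts were near the background. Grb14, an adaptor that inhibits the insulin receptor, was at 59.4, 56.9 and 91.1 CPM on chow (C, CC and CCC), 341 and 222 when obese (H and HH), 233 and 328 after weight loss (HC and HHC), and 148 and 209 after the last HFD (CCH and HCH). Each library with an HFD history lay above all 3 chow libraries, and both weight-loss libraries were as high as the obese ones. The log2 ratios were 2.52 (2.32 to 2.72), 1.96 (1.77 to 2.16), 2.03 (1.87 to 2.20) and 1.85 (1.66 to 2.03) in H, HH, HC and HHC against their controls, and 0.49 (0.30 to 0.68) in HCH against CCH. Mesothelial nuclei held 43.6 to 73.9 CPM in all libraries, a level that C and CC hardly exceeded.

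Irs3, an insulin receptor substrate of rodent fat, was at 6.27 to 20.2 CPM in chow libraries, 73.8 in H, 99.9 in HH, 13.2 in HC and 29.1 in HHC. Hexokinase Hk2 was at 134 to 249 CPM in chow libraries and 576 and 648 in H and HH. The glucose transporter Slc2a4 differed less, at 27.3 to 39.1 CPM in chow libraries and 67.7 and 70.6 in obese ones. Pik3r1, the regulatory subunit of PI3 kinase, was at 901 CPM in H beside 3136 in C, yet CC and CCC held 994 and 749. Its lower call in H therefore rests on the level of C.

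Among 12 adipokine genes, 10 could be compared in H against C, where 4 were higher and 5 lower, and 10 in HH against CC, where 3 were higher and 2 lower (23.5% and 6.39%, then 22.4% and 16.1%, of all genes). Nnat, a proteolipid of the endoplasmic reticulum, was at 1144, 1284 and 2660 CPM on chow (C, CC and CCC), 5845 and 8632 when obese (H and HH), 952 and 2325 after weight loss (HC and HHC), and 2498 and 3931 after the last HFD (CCH and HCH). Both obese libraries were highest, and HC and HHC were slightly below their controls. In log2, Nnat stood 0.96 above mesothelial nuclei in CC and 2.79 above them in HC. The lower level of HC is therefore one with the mesothelial part left in. Angptl4, which inhibits lipoprotein lipase, was 72.6 to 140 CPM in chow libraries, 480 in H and 341 in HH, and 73.2 in HC. Cfd, the complement protease adipsin, was lower in H (165 CPM) than in C (595), but mesothelial nuclei of C held 418.

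Ltc4s, the leukotriene C4 synthase, was outside the lists and was named for its ratio in HH against CC. Its level was 36.2, 9.66 and 19 CPM on chow (C, CC and CCC), 621 and 596 when obese (H and HH), 8.38 and 21.2 after weight loss (HC and HHC), and 49.8 and 182 after the last HFD (CCH and HCH). The obese libraries and then HCH stood above the rest, and both weight-loss libraries were at their controls' level. The log2 ratio was 4.10 (3.92 to 4.29) in H against C, 5.95 (5.61 to 6.30) in HH against CC and 0.16 (−0.43 to 0.73) for HHC. Arxes1, induced by PPARG in fat, had nearly the same order, with 7.65 to 9.27 CPM in chow libraries, 202 in both obese ones, 63.8 in HCH and 5.41 in HC.

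**Figure D2:**
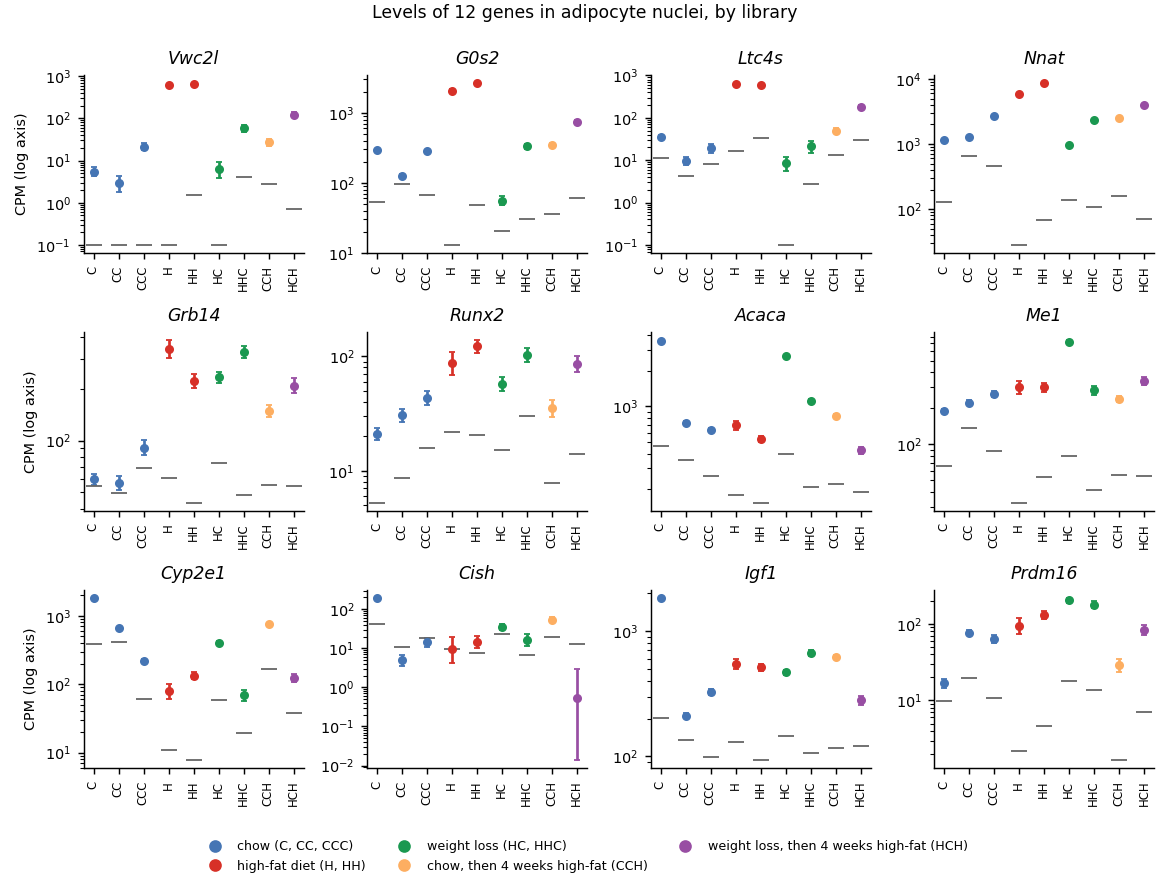
CPM (log axis, with 95% exact Poisson intervals) of 12 genes in adipocyte nuclei of each of the 9 libraries, coloured by diet state; grey dashes mark mesothelial nuclei of the same library, drawn at 0.1 where none had a UMI. Vwc2l, G0s2, Ltc4s and Nnat peaked in H and HH, Grb14 was also high in HC and HHC (233 and 328 CPM), and Acaca was high in C and HC (3563 and 2657 CPM).

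Growth hormone pathway genes were lower in H against C, where 4 of 7 compared were at least 2-fold lower and none higher (6.39% and 23.5% of all genes), with a median log2 ratio of −1.74. In HH against CC 2 were higher (Cish and Igf1) and 3 lower (22.4% and 16.1% of all genes). The choice of control decided the direction of both: with C in place of CC, the log2 ratio in HH was −3.66 for Cish and −1.83 for Igf1. Cish, the STAT5-induced inhibitor of cytokine signalling, was at 189, 4.89 and 14.1 CPM on chow (C, CC and CCC), 9.84 and 14.9 when obese (H and HH), 35.4 and 16.8 after weight loss (HC and HHC), and 53.8 and 0.546 after the last HFD (CCH and HCH). C stood alone at the top, and H was within the range of both older chow libraries. The log2 ratio was −4.26 (−5.47 to −3.28) in H against C and 1.61 (0.87 to 2.33) in HH against CC. In HCH against CCH it was −6.62 (−11.93 to −4.13), from 1 UMI in HCH. In CC, CCC and HCH the level was below that of mesothelial nuclei, which held 10.8, 18.6 and 13.2 CPM.

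Igf1, which growth hormone also induces, was at 1820, 212 and 324 CPM on chow (C, CC and CCC), 544 and 513 when obese (H and HH), 469 and 672 after weight loss (HC and HHC), and 622 and 280 after the last HFD (CCH and HCH). C was again highest, by more than 2-fold over any other library, and CC was lowest. The log2 ratio was −1.74 (−1.88 to −1.61) in H against C but 1.28 (1.17 to 1.39) in HH against CC, and 1.15 and 1.05 in HC and HHC. In HCH against CCH it was −1.15 (−1.29 to −1.01). Socs2, Igf1r and Jak2 were near or below the mesothelial level in most libraries and were not read further.

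The promoter of Cish is shown because the pathway's end point, STAT5, binds letters of the form TTCNNNGAA. The RefSeq promoter window on GRCm38.p6 spans 250 bases before and 50 after the start of transcription on the plus strand, at chr9:107296409-107296708. The capitals mark its 2 matches, which begin at the RefSeq start of transcription and 11 bases after it.
Cish: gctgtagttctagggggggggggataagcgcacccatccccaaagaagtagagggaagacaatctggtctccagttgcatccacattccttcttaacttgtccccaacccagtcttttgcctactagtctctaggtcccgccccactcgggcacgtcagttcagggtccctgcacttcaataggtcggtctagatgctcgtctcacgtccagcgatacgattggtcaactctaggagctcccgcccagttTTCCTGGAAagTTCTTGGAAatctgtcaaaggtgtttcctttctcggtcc
These letters read the same on either strand, and the 2 matches do not overlap. At least 1 match was found in 8.294% of 32817 promoter windows of this length and at least 2 in 0.4571%. Of the other pathway genes in the table, Socs3 had 1 match and Igf1, Igf1r, Stat5a, Stat5b, Ghr and Jak2 had none in their windows.

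Oxidation genes gave 3 higher and 2 lower of 10 in H against C, and none higher and 1 lower in HH against CC (23.5% and 6.39%, and 22.4% and 16.1%, of all genes). Cyp2e1, a cytochrome P450 that oxidises ethanol, ketones and fatty acids, was at 1804, 657 and 216 CPM on chow (C, CC and CCC), 78.7 and 133 when obese (H and HH), 406 and 68.8 after weight loss (HC and HHC), and 767 and 123 after the last HFD (CCH and HCH). Chow libraries stood in order of age with the youngest highest, and each library fed HFD for 12 weeks or more lay below its control. The log2 ratio was −4.52 (−4.90 to −4.16) for H, −2.31 (−2.49 to −2.13) for HH, −0.70 (−0.78 to −0.61) for HC, −1.65 (−1.94 to −1.38) for HHC and −2.64 (−2.85 to −2.45) for HCH. Mesothelial nuclei held 390 CPM in C and 418 in CC. In log2, Cyp2e1 stood 0.65 above mesothelial nuclei in CC and 2.79 above them in HC. The lower level of HC against CC is therefore one with the mesothelial part left in.

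The promoter of Cyp2e1 is shown because the gene had a lower CPM in all 5 comparisons, with the mesothelial part left in. Its window, at chr7:140763569-140763868 on the plus strand of GRCm38.p6, holds 1 match to TATAAA, in capitals, which begins 31 bases before the RefSeq start of transcription.
Cyp2e1: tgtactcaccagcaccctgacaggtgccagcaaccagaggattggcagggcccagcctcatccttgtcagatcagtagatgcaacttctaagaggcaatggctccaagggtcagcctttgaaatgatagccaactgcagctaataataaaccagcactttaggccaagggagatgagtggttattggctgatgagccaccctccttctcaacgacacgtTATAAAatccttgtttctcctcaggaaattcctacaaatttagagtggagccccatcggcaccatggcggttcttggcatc
A TATAAA on either strand was found in 13.62% of the 32817 windows.

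Transcription factors of adipogenesis were called in both directions. Of 16 members 3 were higher and 2 lower in both H against C and HH against CC, with Cebpb and Cebpa higher and Zbtb16 lower in each. Over all genes 23.5% were higher and 6.39% lower in the first and 22.4% and 16.1% in the second, so higher calls were no more frequent than elsewhere. In HC 1 was higher and 3 lower (4.14% and 15.1% of all genes), and 4 were higher and none lower in HCH against CCH (13.8% and 1.84% of all genes). Prdm16, a regulator of brown and beige fat, was at 16.9, 76.8 and 63.3 CPM on chow (C, CC and CCC), 94.7 and 132 when obese (H and HH), 204 and 178 after weight loss (HC and HHC), and 28.9 and 83.5 after the last HFD (CCH and HCH). Both weight-loss libraries were highest. The log2 ratio was 1.41 (1.25 to 1.56) for HC and 1.49 (1.25 to 1.73) for HHC. Ucp1, the uncoupling protein of thermogenic fat, was at 0 UMIs in 8 libraries and at 0.251 CPM in CC. Cebpb and Cebpa, inducers of adipocyte genes, were high in HH (372 and 181 CPM) and lowest in HC (6.49 and 16.2 CPM). The log2 ratio of Cebpb to mesothelial nuclei was −0.84 in CC and −0.24 in HC. Of the 3 factors lower in HC, 2 were at or below the mesothelial level in CC.

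Genes of mitochondria and fatty acid oxidation gave 1 higher and none lower of 15 in H against C (23.5% and 6.39% of all genes), and 6 higher and 2 lower of 17 in HH against CC (22.4% and 16.1%). Fatty acid uptake genes gave 3 higher of 11 in H against C and none past 2-fold in HH against CC, HHC against CCC or HCH against CCH. Esrrg, a nuclear receptor that drives mitochondrial genes, was at 424 CPM in CC and 336 in CCC but 102 to 192 in all others. Its ratio in HH against CC changed from −1.14 to 0.33 in stricter nuclei.

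Matrix and hypertrophy genes stood higher in H, whereas in HH the share called higher was near that of all genes. This list, too, was chosen with earlier results known, so the excess in H is no independent support. Of 20 members compared in H against C 12 were at least 2-fold higher and none lower (23.5% and 6.39% of all genes), with a median log2 ratio of 1.26. In HH against CC 6 of 24 were higher and none lower (22.4% and 16.1% of all genes; 9 of 24 among stricter nuclei), and in HCH against CCH 7 of 23 and none (13.8% and 1.84%). Vwc2l, in this list, was at 5.46, 2.88 and 21.6 CPM on chow (C, CC and CCC), 608 and 667 when obese (H and HH), 6.22 and 58.7 after weight loss (HC and HHC), and 27.3 and 121 after the last HFD (CCH and HCH). The obese libraries formed the top, and HCH and then HHC lay between them and the rest. Runx2, a transcription factor of bone and matrix genes, was at 21.1, 30.6 and 43.3 CPM on chow (C, CC and CCC), 87.3 and 122 when obese (H and HH), 57.3 and 103 after weight loss (HC and HHC), and 35.1 and 85.6 after the last HFD (CCH and HCH). Each HFD library other than CCH exceeded all 3 chow libraries. Its log2 ratio was 0.90 (0.63 to 1.18) for HC and 1.25 (0.95 to 1.56) for HHC.

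Other matrix members were nearer to the mesothelial level. Of the 12 genes higher in H, 8 were at least 2-fold above their mesothelial level: Vwc2l, Thbs1, Col15a1, Col5a3, Lamb1, Nedd9, Cdkn1a and Runx2. Col6a1, Col6a2, Col6a3 and Sparc, which stromal cells express strongly, were at or below it. Col5a3, a fibrillar collagen chain, was at 49.8, 110 and 167 CPM in C, CC and CCC and at 364 and 241 in H and HH.

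Inflammatory genes gave 4 higher of 14 in H against C (23.5% of all genes), 5 higher and 2 lower of 18 in HH against CC (22.4% and 16.1%) and 6 higher of 18 in HCH against CCH (13.8%). The shares in H and HH were near those of all genes. Ccl2, which attracts monocytes, was at 1.76 to 7.65 CPM in chow libraries, 88.6 in H, 27.3 in HH and 27.3 in HCH. Mesothelial nuclei held 34.6 CPM in H and 26.5 in HH, so of both obese libraries H alone was clearly above it. Hp, the haemoglobin scavenger haptoglobin, was 509 CPM in H and 661 in HCH, where mesothelial nuclei held 96.3 and 377.

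Lysosome genes had members called higher in all 5 comparisons, 2 of 19 in HC against CC, but at levels close to or below those of mesothelial nuclei. In HHC against CCC 9 of 19 were higher and none lower (6.38% and 7.85% of all genes), and in HCH against CCH 11 of 19 (13.8%). The summed level of the 19 genes in HHC was 6826 CPM in adipocyte nuclei, 6641 in mesothelial nuclei and 12140 in the other nuclei. In H the same sums were 4621, 6108 and 11030. None of the lysosome genes called higher in H was at least 2-fold above its mesothelial level. Ctsd, the main aspartic protease of lysosomes, was at 769 CPM in H and 949 in HHC, against 1012 and 1004 in mesothelial nuclei.

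Clock genes were called in both directions. Of 12 compared in H against C 2 were higher and 3 lower (23.5% and 6.39% of all genes), and of 15 in HH against CC 2 were higher and 4 lower (22.4% and 16.1%). After weight loss 4 of 15 were lower and none higher in HC (15.1% and 4.14% of all genes), and 3 lower and 1 higher in HHC (7.85% and 6.38%). Nr1d2, a repressor of the clock, was at 125 to 141 CPM in chow libraries and at 362 and 359 in H and HH. Of the epigenetic modifiers, 2 of 18 were higher and 1 lower in H against C, and 1 of 19 higher and 4 lower in HH against CC (23.5% and 6.39%, and 22.4% and 16.1%, of all genes). None of them passed 2-fold in HC, HHC or HCH against their controls, although 1 was lower in HC among stricter nuclei.

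**Figure D3:**
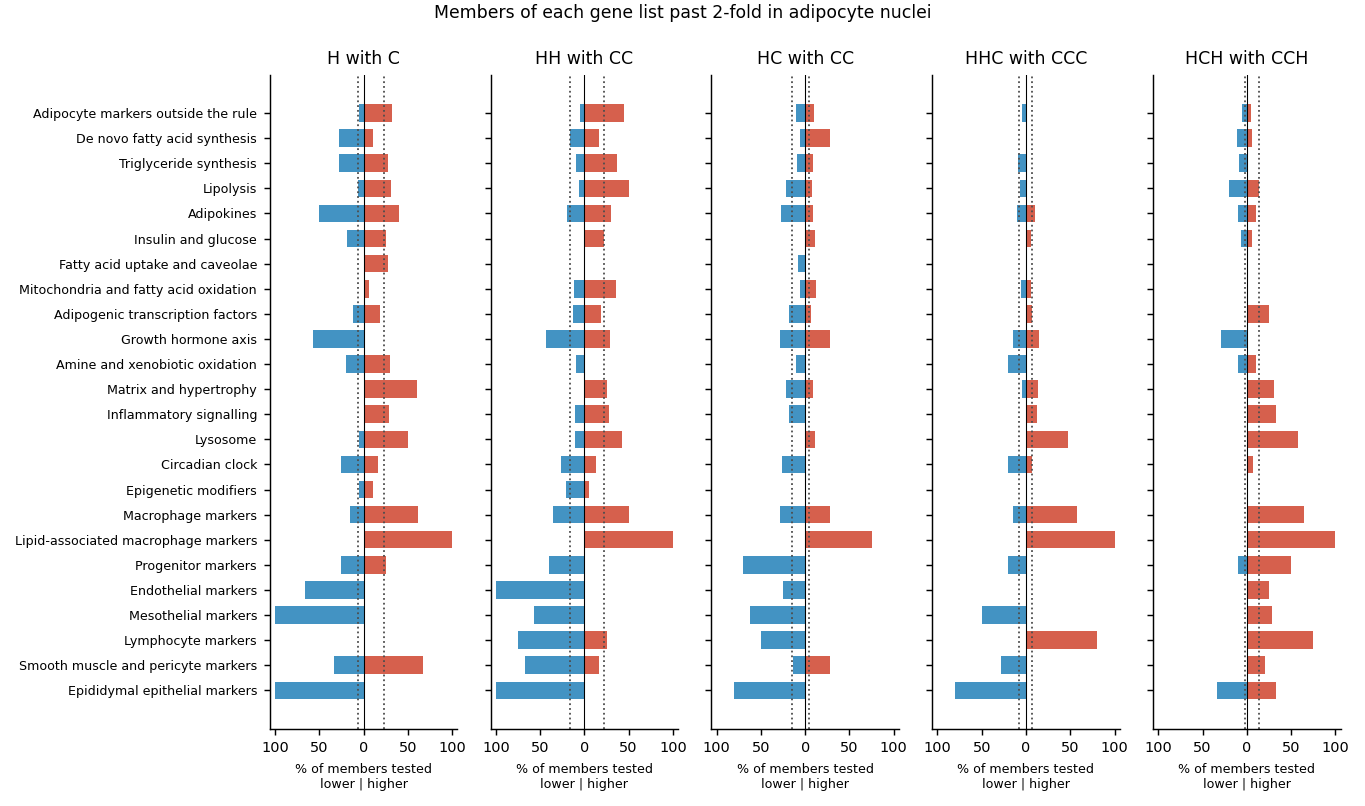
Share of compared members (percent) at least 2-fold higher (red) or lower (blue) in adipocyte nuclei, for 24 gene lists and 5 comparisons; dotted lines mark the share over all genes compared. Matrix genes were higher in 12 of 20 in H against C, while all 8 lipid-associated macrophage markers were higher in HH, HHC and HCH against their controls. The lists were chosen with earlier results of these data known.

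Markers of other cell types moved with the same comparisons. Of 8 markers of lipid-associated macrophages, 7 of 7 compared were higher in H than in C, and 6 of 8 in HC than in CC, while all 8 were higher in HH, HHC and HCH than in their controls. Over all genes the higher shares were 23.5% and 22.4% for obesity (H and HH), 4.14% and 6.38% for weight loss (HC and HHC), and 13.8% for HCH. Their summed level in adipocyte nuclei was 67.6 to 258 CPM in chow libraries, 1265 to 1665 in obese ones, with 821 and 3293 after weight loss (HC and HHC) and 85.2 and 879 in CCH and HCH. In mesothelial nuclei it was 1919 to 2575 CPM in obese libraries and 3261 in HHC, as high or higher. None of these markers was at 0 in any library, and none of those called in H, HH, HC or HHC was 2-fold above the mesothelial level. In HCH 1 of 8 was, Atp6v0d2. Of 15 general macrophage markers, 13 were compared in H against C, where 8 were higher and 2 lower (23.5% and 6.39% of all genes). Their sum ran from 745 to 1184 CPM in chow libraries, was 1371 in H and 1690 in HH and reached 2097 in HHC and 2446 in HCH, against 1933 to 2507 in mesothelial nuclei of those 4 libraries. In HHC and HCH the adipocyte sum was above the mesothelial one, 1933 and 2170 CPM. Of 8 endothelial markers all were lower in HH than in CC (16.1% of all genes), with sums of 115 and 650 CPM, and 6 of 8 were lower among stricter nuclei. In H against C 2 of 3 compared were lower, and 2 of 8 (Pecam1 and Mecom) fell in edgeR over the diet states, or 0 with the sequencing set as a term. Mesothelial markers were lower for 4 of 7 in HH and 5 of 8 in HC against CC (16.1% and 15.1% of all genes), with sums of 96.4 and 88.1 CPM beside 254 in CC. Epididymal epithelial markers summed to 133 to 173 CPM in chow libraries and 19.6 to 22.9 in H, HH and HHC. Progenitor markers summed to 587 to 1906 CPM over all 9 libraries, below mesothelial nuclei in each, and 7 of 10 were lower in HC against CC (15.1% of all genes). In HCH against CCH 5 of 10 were higher (Col3a1, Col1a2, Dcn, Col1a1 and Pdgfrb) and 1 lower (13.8% and 1.84% of all genes), with sums of 1906 and 902 CPM. Lymphocyte markers were higher for 3 of 4 in HCH and 4 of 5 in HHC (13.8% and 6.38% of all genes). Their part in the differences of adipocyte genes was not tested.

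Some of the most extreme ratios between 2 libraries belonged to genes that mesothelial nuclei held as well. Akr1b7, an aldo-keto reductase abundant in the vas deferens, was at 255 CPM in HC and 0.878 in CC, and mesothelial nuclei of HC held 283. Adcy8, an adenylyl cyclase, was at 432 CPM in CC and 229 in CCC but at 0.541 in HC and 13.4 in HHC, with 143 and 135 in mesothelial nuclei of CC and CCC. Trdn, which is a protein of the calcium stores of muscle, was at 167 CPM in HCH and 4.98 in CCH, with 78.1 in mesothelial nuclei of HCH. The genes differed in how far adipocyte nuclei stood above mesothelial ones: Akr1b7 in HC had a log2 ratio of −0.15 to mesothelial nuclei, while Trdn in CCC was at 149 CPM against 23.9. In stricter nuclei Adcy8 was at 105 CPM in CC and 111 in CCC, below the level in mesothelial nuclei of either library, and Trdn in HCH was at 184.

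Libraries of a diet state were then treated as replicates, although their ages and diet lengths differ, as do the sequencing sets of the chow libraries. The test was edgeR's quasi-likelihood test with Benjamini-Hochberg adjustment over 14945 genes, with C, CC and CCC as chow, H and HH as obese and HC and HHC as weight loss. The p-values measure the spread between these 7 pooled libraries. Obese adipocyte nuclei had 1145 genes that rose and 762 that fell at an adjusted p of at most 0.05, or 7.66% and 5.1% of the genes tested. Of the 1145, 546 (47.7%) were at least 2-fold above the mesothelial level in both H and HH. Of the 762, 21 (2.76%) were so in all 3 chow libraries. At or below the mesothelial level in all of these libraries were 117 (10.2%) of the 1145 and 320 (42.0%) of the 762. Shares of genes that rose and fell cannot be compared directly. Those of genes that fell ask for 3 libraries, among them CC, where both kinds of nuclei lay close together. Without C 1819 rose and 2187 fell, without CC 179 and 64, without CCC 764 and 313, and without H or without HH none passed, where 3356 and 2915 genes had an unadjusted p under 0.05. In the fit without C, chow and obese libraries are in different sequencing sets, so diet state and set cannot be told apart. DESeq2 gave 1581 and 1537, and stricter nuclei 1475 and 804.

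Among list members, several groups had genes that rose and, without a term for sequencing set, none that fell. Lipolysis genes had 2 of 16 that rose, adipocyte markers outside the rule 2 of 20, triglyceride synthesis 2 of 11, insulin and glucose 3 of 18 and matrix and hypertrophy 4 of 24. Of all genes tested 7.66% rose and 5.1% fell, so in lists this short the lack of genes that fell is close to the background. De novo synthesis had 1 of 18 that rose. With the sequencing set as a term, lipolysis had 0 that rose (adjusted p = 0.086 for G0s2) and 1 that fell, adipocyte markers 2 and 1, triglyceride synthesis 2 and 2, insulin and glucose 3 and 8, matrix 9 and 1 and de novo synthesis 1 and 5. In that fit 6.43% of all genes rose and 7.03% fell. Among stricter nuclei 2 insulin and glucose genes and 1 of de novo synthesis fell. Vwc2l rose by 5.95 ± 0.96 on the log2 scale (standard error, adjusted p = 0.018), Ltc4s by 4.57 ± 0.59 (0.015), Arxes1 by 4.40 ± 0.37 (0.0097) and G0s2 by 3.13 ± 0.66 (0.030). Irs3 rose by 2.65 ± 0.46 (adjusted p = 0.021), Gpd1 by 2.04 ± 0.36 (0.021), Nnat by 1.96 ± 0.48 (0.040), Grb14 by 1.86 ± 0.27 (0.016), Agpat2 by 1.70 ± 0.32 (0.024), Hk2 by 1.60 ± 0.26 (0.019) and Runx2 by 1.60 ± 0.32 (0.026). Each was higher in both obese libraries than in all 3 chow libraries. Without CC, Vwc2l, Ltc4s, Arxes1, Irs3 and Grb14 stayed past the threshold, whereas G0s2, Gpd1, Nnat, Agpat2, Hk2 and Runx2 did not.

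Several genes with large ratios between 2 libraries did not pass this test, and their levels differed widely among the chow libraries. Acaca gave a log2 fold change of −1.71 ± 0.90 (adjusted p = 0.21), Igf1 −0.87 ± 0.89 (0.51), Cish −2.76 ± 1.55 (0.23) and Cyp2e1 −3.34 ± 1.14 (0.082). Among lists of adipocyte function, those without any gene past the threshold in either direction were fatty acid uptake (12 entered), mitochondria (17), transcription factors (16) and oxidation (10). With the sequencing set as a term these had 2, 1, 1 and 1 that rose and 0, 0, 4 and 3 that fell, and among stricter nuclei transcription factors had 1 and 3. Over all genes 7.66% rose and 5.1% fell. In the growth hormone group 3 of 8 fell (Jak2, Socs2 and Igf1r), all near or below the level of mesothelial nuclei in most libraries. In the lysosome group 6 of 19 rose and 1 fell, and in the lipid-associated macrophage group 5 of 8 rose. The largest changes among all genes were of genes at 0 or nearly so in 1 diet state, such as Myh3 and Itgad, which rose, and Pax8 and T2, which fell.

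After weight loss, no gene passed the same test against chow, with 1621 of 14945 genes (0 called, 0%) at an unadjusted p under 0.05. DESeq2 called 131 higher and 195 lower. Both weight-loss libraries are in 1 sequencing set, and with that set as a term edgeR called 44 higher and 290 lower. Without C it called 47 and 297. Among stricter nuclei edgeR called 14 higher and 1 lower, and the 14 included the macrophage genes Trem2, Gpnmb, Itgax, Ctss and Cd84 as well as Grb14. For Grb14 the log2 fold change in the main test was 1.94 with an adjusted p of 0.22. Differences between libraries were therefore described as counts.

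Differences of obese nuclei were seen again after weight loss for a minority of genes. Of 2005 genes at least 2-fold higher in H against C and compared in both pairs, 168 (8.38%) were also higher in HC against CC, which is 69.4% of the 242 genes higher there. More of the 2005, 229, were at least 2-fold lower in HC, and their median log2 ratio there was −0.13 beside −0.11 over all genes compared in both. With TMM factors 1423 genes were higher in H, of which 209 (14.7%) were higher and 142 lower in HC. Of 2299 higher in HH against CC, 471 (20.5%) were higher in HHC against CCC, which is 72.7% of 648, and 50 were lower there. Of genes lower in H 90 of 570 (15.8%) were lower in HC, and of those lower in HH 628 of 1902 (33.0%) were lower in HHC. Over all genes compared in both pairs, 582 of 8839 were lower in HC and 900 of 11742 in HHC. Among stricter nuclei 162 of 2018 (8.03%) and 589 of 2382 (24.7%) were higher again, and 44 of 519 (8.48%) and 235 of 1033 (22.8%) lower again. No library is shared between the pairs of either set.

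Genes past 2-fold the same way in H, HH, HC and HHC against their controls numbered 105 higher and 39 lower of 8791 compared in all 4, with CC used for 2 of them. Among stricter nuclei they numbered 101 higher and 18 lower of 8659. The 10 higher genes ranked by the smallest of the 4 ratios were largely macrophage and lysosome genes (Mmp12, Gpnmb, Trem2, Cd68, Itgax, Spp1, Ctsk and Lgals3). Gnal, the stimulatory G protein subunit first found in olfactory neurons, was also among them. It was at 22.0, 10.9 and 6.49 CPM on chow (C, CC and CCC), 162 and 102 when obese (H and HH), 45.4 and 142 after weight loss (HC and HHC), and 19.9 and 23.5 after the last HFD (CCH and HCH), with at most 8.66 in mesothelial nuclei of any library. All 4 obese and weight-loss libraries were above all chow libraries. The log2 ratios were 2.88, 3.23, 2.06 and 4.45 in H, HH, HC and HHC, and 0.23 (−0.34 to 0.79) in HCH against CCH.

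Other genes stood much nearer to their controls after weight loss, or below them. G0s2, Ltc4s, Arxes1 and Nnat, all far higher in H and HH, had log2 ratios of −1.16, −0.20, −0.50 and −0.43 for HC with CC as its control. The same genes in HHC, with CCC as control, were at 0.24, 0.16, 0.86 and −0.19. The value for G0s2 in HC turned to 0.38 once mesothelial CPM were subtracted. Nnat, too, stood much less far above mesothelial nuclei in CC than in HC, at log2 ratios of 0.96 and 2.79. Vwc2l, far higher in H and HH as well, had ratios of 1.11 (0.21 to 2.01) in HC and 1.45 (1.03 to 1.86) in HHC. Its 6.22 CPM in HC were near the 5.46 of C and below the 21.6 of CCC. Syt2, a synaptotagmin of vesicle release, was lower in every pair: it was at 80.4 to 126 CPM in chow libraries, 28.3 and 35.8 when obese (H and HH), 37.3 and 18.4 after weight loss (HC and HHC), and 139 and 24 in CCH and HCH. It fell by 1.85 ± 0.43 on the log2 scale in obese nuclei (edgeR adjusted p = 0.036).

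After re-challenge, HCH differed from CCH in the direction of obesity. Of the 1597 genes higher in HCH, 654 (41%) were at or below their level in mesothelial nuclei of HCH. The overlaps below include such genes and were not counted without them. Of 2067 genes higher in H against C and compared in both pairs, 798 (38.6%) were at least 2-fold higher in HCH against CCH and 3 were lower, and these 798 were 87.1% of the 916 genes higher in HCH. Of 566 lower in H, 75 (13.2%) were lower in HCH. Over all 8896 genes compared in both pairs, 916 were higher and 132 lower in HCH. Among stricter nuclei 860 of 2107 and 85 of 516 were shared. G0s2 was 2-fold higher in HCH than in CCH, with a log2 ratio of 1.10 (0.99 to 1.21), Ltc4s had 1.87 (1.60 to 2.13), Vwc2l 2.15 (1.81 to 2.50) and the calcium release channel Ryr2 2.25 (2.02 to 2.49), from 57.2 to 272 CPM. Fabp4 had 1.22 (1.17 to 1.26). All 5 lay between their CCH and obese levels in HCH. Erbb4, a neuregulin receptor listed here among epididymal epithelial markers, was lower, at 39.3 CPM against 182, and the axonemal dynein Dnah3 was at 34.4 against 144.

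To count nuclei with a gene at equal depth, each nucleus was thinned to 1000 UMIs. At that depth a gene of low level is missed in many nuclei, so these shares follow the level. They cannot tell whether a difference came from few nuclei or from many. That left 185 adipocyte nuclei in H, 469 in HH, 450 in HHC, 425 in HCH and 758 to 2602 in the others. G0s2 had a UMI in 64.9% (95% exact interval 57.5 to 71.7) of nuclei in H and 72.3% (68.0 to 76.3) in HH, against 24.4% in C and 11.7% in CC. Mesothelial nuclei had 1.23% in H and 4.17% in HH. G0s2 was thus in most obese adipocyte nuclei, and it was in 38.8% (34.2 to 43.6) of HCH nuclei and 26.4% (23.3 to 29.7) of CCH nuclei. Ltc4s had a UMI in 40.5% (33.4 to 48.0) of H nuclei and 36.7% (32.3 to 41.2) of HH nuclei, and in 3.42% of C.

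Acaca had a UMI in 81.0% (79.4 to 82.5) of C nuclei, 65.1% (62.0 to 68.2) of HC nuclei and 28.6% (22.2 to 35.7) of H nuclei. In mesothelial nuclei it was 31.1%, 33.6% and 15.3%. In CC the shares were 39.4% in adipocyte and 36.2% in mesothelial nuclei, which do not differ beyond their intervals. The unthinned level of Acaca in CC was nevertheless above that of mesothelial nuclei, by 1.04 on the log2 scale. Grb14 was in 17.3% (13.9 to 21.1) of HHC nuclei and 15.7% (13.4 to 18.3) of HC nuclei, against 3.99% to 6.29% in chow libraries and 4.31% and 4.58% in mesothelial nuclei of HHC and HC. Unthinned, the levels in HHC and HC were 328 and 233 CPM.

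Vwc2l, whose level was below that of G0s2, was found in 22.2% (16.4 to 28.8) of H nuclei, 22.4% (18.7 to 26.4) of HH nuclei, 5.41% (3.46 to 8.01) of HCH nuclei and 3.11% (1.71 to 5.17) of HHC nuclei. It was in 0 of 326 mesothelial nuclei of H, with an exact interval up to 1.12%. The macrophage genes behaved in the opposite way. Mmp12 had a UMI in 40.5% of H adipocyte nuclei but 60.4% of H mesothelial nuclei, and Gpnmb in 65.8% and 65.6% of both kinds in HHC. These shares were within the intervals of, or below, those in mesothelial nuclei and were not read as expression by adipocytes.

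**Figure D4:**
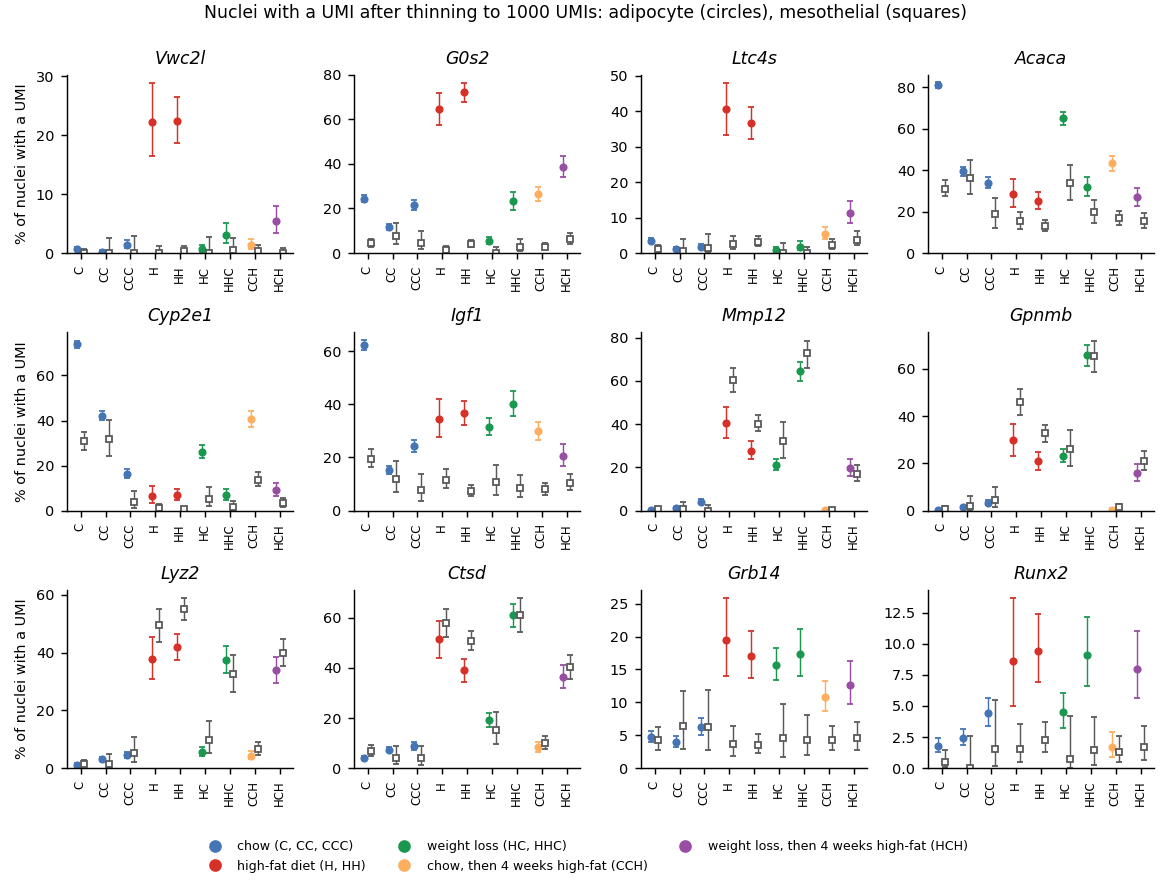
Percentage of nuclei with at least 1 UMI after thinning to 1000 UMIs, with 95% exact binomial intervals, for 12 genes in adipocyte nuclei (circles) and mesothelial nuclei (squares) of each library. G0s2, Ltc4s and Vwc2l separate both kinds of nuclei in H and HH (22.2% against 0% for Vwc2l in H), whereas Mmp12, Gpnmb, Lyz2 and Ctsd are no higher in adipocyte than in mesothelial nuclei there (40.5% against 60.4% for Mmp12 in H).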

How the data were processed

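The authors deposited a filtered count matrix per library, with whole-number UMI counts of 32285 features, made with Cell Ranger 6.1.2 on the mm10 genome with introns included. They estimated free RNA without removing it, and their doublet calls were not used here. Nuclei were taken by the rule in the opening. The members and gene lists were chosen with earlier results of these data known. UMIs of adipocyte nuclei were summed per library and scaled to CPM without mitochondrial genes and Malat1. A gene was compared between 2 libraries where the mean CPM would give at least 10 UMIs in the smaller sum, and called at 2-fold, against a floor of 3 counts where a library had none. The 21 rule genes were left out. Diet states were tested with edgeR 4.0.16 (TMM, filterByExpr), and the scripts were tested on simulated data. DESeq2 1.42.0 and Scrublet in scanpy 1.11.5 served as alternatives, and the stricter nuclei were added after seeing the data. Genes were named as list members, as the 10 protein-coding genes of at least 50 CPM with the highest and the 10 with the lowest ratio in each comparison, as the 10 largest edgeR changes each way, as genes changed alike in 4 comparisons, or as the 15 most enriched in adipocyte nuclei. Ltc4s, Arxes1, Syt2, Dnah3, Ryr2 and Gnal were named by their ratio in a single comparison or in all 4. RefSeq promoter windows are on GRCm38.p6.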

Additional observations from a re-analysis of the deposited data

Results flagged for a closer look

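Cish and Igf1 moved past 2-fold in opposite directions after the short and the long diet, and the difference between the comparisons was not tested, since each side is 1 library. Cish had a log2 CPM ratio of −4.26 in H against C and 1.61 in HH against CC. Igf1 had −1.74 in H against C and 1.28 in HH against CC. In the youngest chow library, C, both genes were far above CC and CCC (189 against 4.89 and 14.1 CPM for Cish, and 1820 against 212 and 324 CPM for Igf1), and the obese libraries were at 9.84 and 14.9 CPM for Cish and at 544 and 513 CPM for Igf1. With C in place of CC as the control of HH, the ratios in HH were −3.66 for Cish and −1.83 for Igf1, the same direction as in H, so the opposite directions rest on the choice of control. Among stricter nuclei the gap between C and CC was as large, at 194 and 3.28 CPM for Cish and 1875 and 186 CPM for Igf1. Age, sequencing set and the last control diet all differ between C and CC and cannot be told apart.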

How the results depend on the processing

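No paired analysis was possible because each group has 1 library and the labels give no replicate numbers. The share of adipocyte nuclei moved with the rule. In the order C, CC, CCC, HC, HHC, CCH and HCH it was 27.0, 62.8, 34.5, 21.7, 8.32, 14 and 6.58% with 5 adipocyte genes, and 21.1, 47.1, 21.3, 15.2, 4.02, 9.25 and 3.58% with 7. In that order it was 19.4, 32.8, 18.6, 11.8, 3.19, 8.6 and 2.98% with at most 1 gene of another class (3.14% in HH), and 20.7, 34.0, 23.1, 11.7, 3.48, 7.95 and 3.22% after thinning (1.65% in H and 3.28% in HH). Without the limit on genes it was 27.3, 53.5 and 31.0% in C, CC and CCC, 5.15 and 6.95% in H and HH, 7.84% in HHC, 26.2% in CCH and 11.9% in HCH. Stricter nuclei, chosen after seeing the data, gave 21.8, 24.5, 15.6, 15.2, 9.32 and 3.89% in C, CC, CCC, HC, CCH and HCH, and dropping high Scrublet scores gave 3.22% in HH.

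Genes at least 2-fold higher in H, HH, HC, HHC and HCH against their controls numbered 568, 1355, 341, 382 and 802 after thinning and 803, 1734, 279, 353 and 796 with at least 30 UMIs. Genes lower in H, HH, HC and HHC numbered 366, 1050, 1193 and 417 after thinning, and 344, 1201, 1114, 334 and, in HCH, 108 with at least 30 UMIs. Without the gene limit 3927 were higher and 1339 lower in H, 1165 higher in HHC, and 2469 higher and 500 lower in HCH. TMM gave 1290 lower in H and 347 in HCH, stricter nuclei gave 1091, 1068 and 587 lower in HH, HC and HHC, at least 5 UMIs gave 384 lower in HCH, and C as the control of HH gave 727 lower.

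Obese against chow gave 1872 higher and 1617 lower without the gene limit, 1537 lower with DESeq2, 2006 lower without a filter, 1300 lower with 5 genes and 497 lower with 7. Leaving out 1 library gave 0 to 1819 higher and 0 to 2187 lower; without C it was 1819 and 2187, without CC 179 and 64, without CCC 764 and 313, and without H or HH 0, the lone obese library then being assumed to vary like the others. Without C, the obese and chow libraries are in different sequencing sets. Weight loss against chow gave 131 higher and 195 lower with DESeq2, 263 and 366 without a filter, 44 and 290 with the sequencing set as a term, and 14 and 1 in stricter nuclei. Leaving out 1 library gave 0 to 47 higher and 0 to 297 lower, both highest without C. Genes shared between obesity and a later state were also counted without the gene limit. For H and HC, 361 of 3161 were higher again and 451 of 1312 (34.4%) lower again. For HH and HHC, 710 of 3202 were higher again. For H and HCH, 1506 of 3871 were higher again and 252 of 1323 lower again. Stricter nuclei gave 44 lower for H and HC and 235 lower for HH and HHC, and TMM 150 lower for H and HCH.

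Of 1582 repeats of called single-gene ratios, 1124 stayed within the counting interval of the reported ratio, 446 moved beyond it in the same direction and 12 reversed. With mesothelial CPM subtracted, HC against CC became −0.26 for Gpnmb, 0.45 for Fabp4, 0.91 for Cfd, 0.96 for Scd1, 0.38 for G0s2 and 0.064 for Agt, and HH against CC became 2.12 for Cfd and 0.44 for Scd1. With C as the control, HH gave −3.66 for Cish, −1.83 for Igf1 and 0.87 for Esrrg, and stricter nuclei gave 0.33 for Esrrg. The cause was not tested. Of 442 repeats of called single-gene edgeR results, 350 stayed past the threshold and 92 did not, with no change of sign. H had the fewest adipocyte UMIs, which limits what can be seen of genes lower there.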
